A study of Mus musculus with 3 samples.

Results

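Pancreatic duct cells carried over into preparations of mouse islets of Langerhans are the subject here. They were picked cell by cell from RNA counts: among barcodes with at least 500 detected genes and at most 15% of their unique molecular identifiers (UMIs, each standing for 1 captured RNA molecule) from mitochondrial genes, a duct cell had at least 2 UMIs of Spp1, at least 2 of the 5 genes Krt19, Sox9, Cftr, Muc1 and Mmp7 detected, and less than 15% of its UMIs from Ins1, Ins2, Gcg, Sst and Ppy. This gave 259 duct cells out of 7490 kept cells. They were 42 of 1145 cells in mouse 1, 94 of 2705 in mouse 2 and 123 of 3640 in mouse 3, or 3.67%, 3.48% and 3.38% (mean 3.51% ± 0.147, SD, n = 3 mice). Because the cells were chosen by these 11 genes and markers of other classes, values of those genes are given as a description only.

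Duct cells line the branching tubes that carry digestive enzymes from acinar cells to the gut. They add a fluid rich in bicarbonate by moving chloride through the Cftr channel, exchanging ions with sodium-coupled carriers and answering the hormone secretin. The transcription factors Sox9 and Onecut1 mark the duct lineage from the embryo onwards, the apical primary cilium senses flow, and in the embryo the endocrine cells arise from Sox9-expressing duct-like epithelium through a brief pulse of the transcription factor Neurog3.

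All 3 animals were female, non-diabetic NOD-SCID mice, 10 to 11 weeks old. This strain lacks mature T and B cells, and every animal here carries that defect, so there is no immune-competent control. Each mouse gave 1 library of droplet-based sequencing of transcript 3′ ends, with no pooling, and the 3 libraries form 1 group. The series asks about a non-endocrine source of new beta cells, while nothing in the sample labels speaks of an injury or a drug. Islets were released by collagenase given through the bile duct, purified on a density gradient and dissociated with TrypLE, so the duct cells are those that stayed with islets through that purification. The comparisons therefore run between cell classes of the same mice.

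The rule asked for at least 2 of the 5 other duct markers, so their detection in the chosen cells follows in part from the choice. Krt19, a keratin of simple epithelia, had a UMI in 92.9%, 85.1% and 98.4% of duct cells of mice 1, 2 and 3, and Sox9, the duct lineage transcription factor, in 90.5%, 84.0% and 97.6%. Cftr, the apical chloride channel, was found in 47.6%, 48.9% and 59.3%, the membrane mucin Muc1 in 73.8%, 64.9% and 69.1%, and the matrix protease Mmp7 in 28.6%, 38.3% and 57.7%. In endothelial cells of the same libraries these genes had a UMI in at most 3.8% of cells. Spp1, the secreted glycoprotein osteopontin, had 10, 331 and 1650 UMIs per cell at the lowest, median and highest in mouse 1, 2, 113.5 and 3316 in mouse 2, and 7, 210 and 1440 in mouse 3. It was not limited to these cells, since 15.3%, 8.1% and 15.7% of endocrine cells and 11.1%, 34.6% and 4.8% of acinar cells held at least 1 Spp1 UMI. Endocrine and endothelial cells were defined with fewer than 2 Spp1 UMIs, so their Spp1 shares count cells with exactly 1 UMI.

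**Figure D1:**
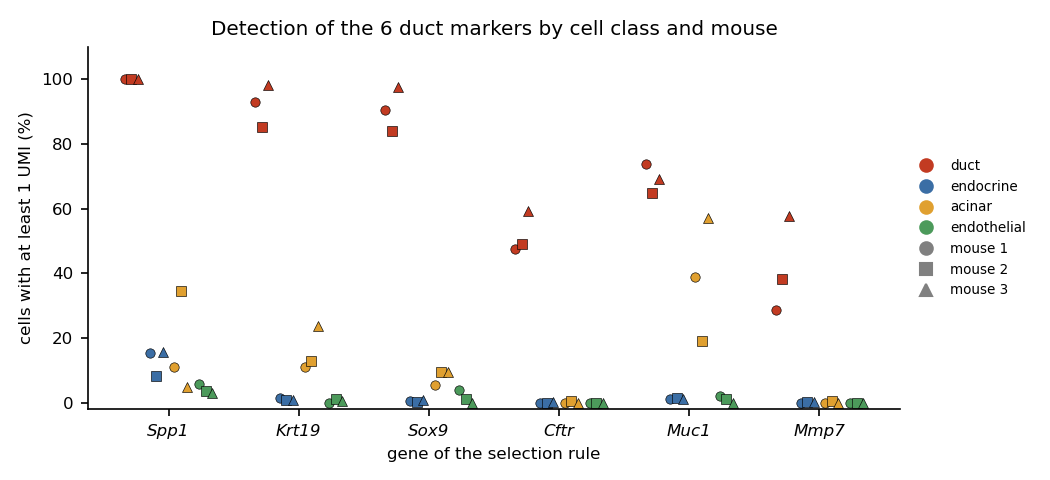
Percent of cells (y axis) with at least 1 UMI of each of the 6 duct markers used by the rule, in duct, endocrine, acinar and endothelial cells of each mouse (1 point per mouse). Duct cells lie high by construction, Krt19 and Sox9 reach 84.0% to 98.4% of them, and Muc1 is also found in 19.0% to 57.1% of acinar cells. Endocrine and endothelial cells were limited to fewer than 2 Spp1 UMIs by their definition.

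Few duct cells sat near the Spp1 limit of the rule, and more sat near its limits on the other markers and on hormones. Exactly 2 Spp1 UMIs were found in 1 duct cell, and fewer than 10 in 6. Of the 5 other markers, 50 duct cells had 2, 74 had 3, 85 had 4 and 50 had all 5. Just outside were 79 hormone-poor cells with enough Spp1 but only 1 other marker (9, 60 and 10 per mouse, with a median of 24 Spp1 UMIs), and 1 cell with a single Spp1 UMI. Another 21 cells met the marker conditions but had at least 15% of UMIs from hormone genes, 8 of them below 20%, while 19 duct cells lay between 10% and 15%. The highest hormone share inside the rule was 14.4% and the lowest outside it was 15.2%.

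The libraries of mice 1, 2 and 3 held 32389170, 48076507 and 57849496 UMIs, and the duct cells in them 1240700, 1756107 and 1831829. A duct cell of mouse 1 had 2163, 14971 and 135835 UMIs at the lowest, median and highest, of mouse 2 926, 8825.5 and 104745, and of mouse 3 1125, 12259 and 55786. Mice 1 and 2 shared 148 barcodes, but no duct barcode was a duct cell in 2 libraries. Mouse 2 stood apart in digestive enzyme RNA: 12 acinar markers made up 4.29% of the UMIs of its duct cells, against 0.291% in mouse 1 and 0.129% in mouse 3. Its 21 duct cells with at least 10% acinar RNA had a median of 39 Spp1 UMIs and 7 of them had 3 or more other duct markers, while in its 65 duct cells below 5% the median was 194 and 57 had 3 or more. No duct cell of mice 1 and 3 reached 5%. Endothelial cells of the 3 libraries also held acinar marker RNA, at 10632, 28880 and 3811 CPM (UMIs of the genes scaled to a common total of all UMIs). The part of this RNA in the results was not tested.

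Markers of endothelial cells, macrophages, fibroblasts and T cells were low in the duct cells, while some markers of other cell types were not. No duct cell had 3 or more of 6 endothelial markers, whose summed level was 29.5 to 49.2 CPM against 11328 CPM in the endothelial cells of mouse 1, and Cdh5 was at 0. The macrophage markers summed to 13.1 to 32.2 CPM with Adgre1 at 0, and 1 duct cell had 3 of them. Fibroblast markers summed to 0 to 1.09 CPM, and no T cell marker had a UMI. Dendritic markers summed to 58.8, 109 and 709 CPM, highest in mouse 3, where 14 duct cells had 3 or more of these genes, and Itgax and Flt3 were at 0 in every mouse. Pericyte markers summed to 584, 572 and 652 CPM against 272, 117 and 97.0 in endothelial cells, with Pdgfrb at 0 in duct cells, and Rgs5 alone held 580, 569 and 646 of these. Schwann cell markers summed to 94.3, 71.7 and 170 CPM against 12.7, 8.33 and 9.53 in endothelial cells, with Sox10 at 0, and Cryab alone held 80.6, 57.5 and 165 in duct cells. At least 3 of 4 delta cell markers (Sst, Hhex, Rbp4 and Ghsr) had a UMI in 33, 58 and 65 duct cells against 7, 2 and 16 endothelial cells. Of these, Hhex was at 535, 526 and 379 CPM against 43.6, 33.3 and 32.0, and Ghsr was at 0. Rbp4 was at 273, 434 and 152 CPM against 134, 43.3 and 113. Sst was at 688, 2311 and 461 CPM against 1222, 710 and 1485, so it was higher in duct cells in mouse 2 only. The part of cells or RNA of these types in the results was not tested. The 8 tuft cell markers summed to 8.87, 11.96 and 27.3 CPM in duct cells, against 14.5, 5.00 and 6.06 in endothelial cells. Of these markers, Pou2f3, Il25, Gfi1b and Sh2d6 were at 0 in duct cells of every mouse. Dclk1, Trpm5 and Avil were above 0 in every mouse, and Alox5ap in mouse 3 only. No duct cell had 3 or more tuft markers. Among the highest doublet scores removed at the expected rate were 2 duct cells, both of mouse 3.

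To ask which genes set duct cells apart, UMIs were summed per mouse for duct, endocrine, acinar and endothelial cells and compared in 1 fit with edgeR's quasi-likelihood test, with the mouse as a block. The classes other than duct held 386, 1453 and 1670 endocrine cells, 36, 211 and 21 acinar cells and 52, 87 and 256 endothelial cells in mice 1, 2 and 3. Of 10975 genes tested, 2924 (26.6%) were higher and 3130 (28.5%) lower in duct than in endocrine cells at a false discovery rate (FDR) of 0.05. Against acinar cells 1445 (13.2%) were higher and 1607 (14.6%) lower, and against endothelial cells 2413 (22%) and 2620 (23.9%). Against all 3 classes at once, with a difference of at least 1 on the log2 scale, 468 genes (4.26%) were higher and 259 (2.36%) were lower in duct cells. Without mouse 2, which holds 211 of the acinar cells, these last counts were 289 and 141, and those against acinar cells 777 and 946. Acinar cells had no limit on Spp1, and 64 of those 211 had at least 2 Spp1 UMIs, against 0 in mice 1 and 3.

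The counts depend on how the class totals are scaled. Of the called genes, 48.3%, 47.3% and 47.9% were higher in duct than in endocrine, acinar and endothelial cells with trimmed mean (TMM) scaling, and 91.7%, 98.5% and 59.7% without it. Leaving TMM out moved the median log2 difference over all genes by 1.42, 2.93 and 0.25, and DESeq2's scaling moved the endocrine one by 0.12. All differences below are relative to the TMM scale, and the p-values do not cover the choice of cells from the same counts.

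The 24 genes that led the duct cells by this comparison included Cp, Msmp, Wfdc18, Lcn2, Ambp and Alb, which encode secreted proteins. Ceruloplasmin, Cp (ENSMUSG00000003617, GRCm38 chr3:19957054-20009145), a copper-carrying ferroxidase, was at 919, 884 and 747 CPM on the TMM scale in duct cells of mice 1, 2 and 3 (850 ± 90.9, SD, n = 3). It stood at 0.47, 0.803 and 0.381 CPM in endocrine cells, 3.98, 43.9 and 16.7 in acinar cells and 3.03, 0.928 and 0.424 in endothelial cells. No duct value overlapped those of another class. The log2 differences were 10.59 (SE 0.38, FDR 1.72e-16), 5.06 (SE 0.34, FDR 3.72e-10) and 9.46 (SE 0.43, FDR 3.03e-14).

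Msmp (ENSMUSG00000078719, chr4:43583216-43584494), a small secreted microseminoprotein, was at 1359, 1322 and 672 CPM in duct cells and at 1.13, 0.661 and 0.381 in endocrine cells. It was at 2.02, 2.78 and 1.7 CPM in endothelial cells, and its acinar values of 0, 51.2 and 0 came from mouse 2 alone. Every duct value was thus far above every other class, with log2 differences of 10.67 (SE 0.65, FDR 1.06e-06), 5.53 (SE 0.60, FDR 0.000215) and 8.92 (SE 0.69, FDR 8.45e-06) over endocrine, acinar and endothelial cells. Wfdc18 (ENSMUSG00000000983, chr11:83709015-83711348), a small protein with a whey acidic protein domain of the protease inhibitor type, was at 276, 947 and 747 CPM in duct cells, lowest in mouse 1. It was at 0, 105 and 0 in acinar cells and at most at 1.5 in endocrine cells. The log2 difference over endocrine cells was 9.64 (SE 0.98, FDR 0.000145). The one over acinar cells, 3.87 (FDR 0.0161), did not pass without mouse 1 (FDR 0.05) or mouse 3 (FDR 0.227). Endothelial cells held 2 Wfdc18 UMIs, and that difference (FDR 0.000619) did not pass without mouse 3 (FDR 0.0773).

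Lcn2 (ENSMUSG00000026822, chr2:32384633-32388252), lipocalin 2, which withholds iron from bacteria, was at 249, 253 and 782 CPM, highest in mouse 3, and exceeded endocrine cells by 10.33 on the log2 scale (SE 0.45, FDR 1.2e-11). Complement C3 (ENSMUSG00000024164, chr17:57203970-57228136), at 73.3, 82.4 and 196 CPM, was also highest in mouse 3 and exceeded endocrine cells by 5.83 (SE 0.52, FDR 4.2e-05), while its difference from acinar cells did not pass without mouse 1 (FDR 0.117). Several proteins best known from liver and blood plasma were present too. C-reactive protein, Crp (ENSMUSG00000037942), was level over the mice at 97.9, 106 and 104 CPM and had no UMI in endothelial cells, so it was at least 151-fold higher there. Albumin, Alb (ENSMUSG00000029368, chr5:90460897-90476602), was at 236, 231 and 97.1 CPM and at least 277-fold above endothelial cells, which had none. It exceeded endocrine cells by 6.17 (SE 0.42, FDR 7.9e-06), and its call against acinar cells was lost without mouse 1 (FDR 0.0674). Ambp (ENSMUSG00000028356, chr4:63143275-63154799), the precursor of alpha-1-microglobulin and bikunin, was at 834, 710 and 428 CPM, and transferrin, Trf, at 129, 53.0 and 69.5 CPM.

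Other leading genes included Ankrd1, Krt17, Cldn2 and Dcdc2a. Ankrd1 (ENSMUSG00000024803, chr19:36111961-36120099), a nuclear ankyrin repeat protein and YAP target, was at 54.0, 75.6 and 191 CPM in duct cells. It had 4 UMIs in all endocrine cells and none in acinar or endothelial cells, so it was at least 49.5-fold and 158-fold above the last 2 classes (FDR 6.27e-21, 2.49e-10 and 9.65e-16 against endocrine, acinar and endothelial cells). Krt17 (ENSMUSG00000035557, chr11:100256217-100261029), a keratin of basal and wounded epithelia, was at 15.7, 129 and 200 CPM and at least 169-fold above endothelial cells, and its call against acinar cells did not pass without the mouse block (FDR 0.0578). The duct cells of mouse 1 were low in both. Cldn2 (chrX:139800828-139811386), a claudin that lets cations and water pass between cells, was at 91.1, 88.6 and 67.9 CPM, and at least 122-fold above endothelial cells. Dcdc2a (ENSMUSG00000035910, chr13:25056004-25210706), a doublecortin-domain protein of the cilium, was even over the mice, with 311, 316 and 338 CPM (mean 322, n = 3), and exceeded endocrine cells by 6.79 (SE 0.44, FDR 2.43e-07). Slc28a3, a nucleoside transporter, was at 129, 97.6 and 73.3 CPM, the growth factor Pdgfc at 84.7, 63.6 and 35.6, the scavenger receptor Scara3 at 326, 256 and 200 and Tmem45a at 406, 314 and 358. For most of the 24 leading genes the acinar sums were above 0 in mouse 2 only.

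**Figure D2:**
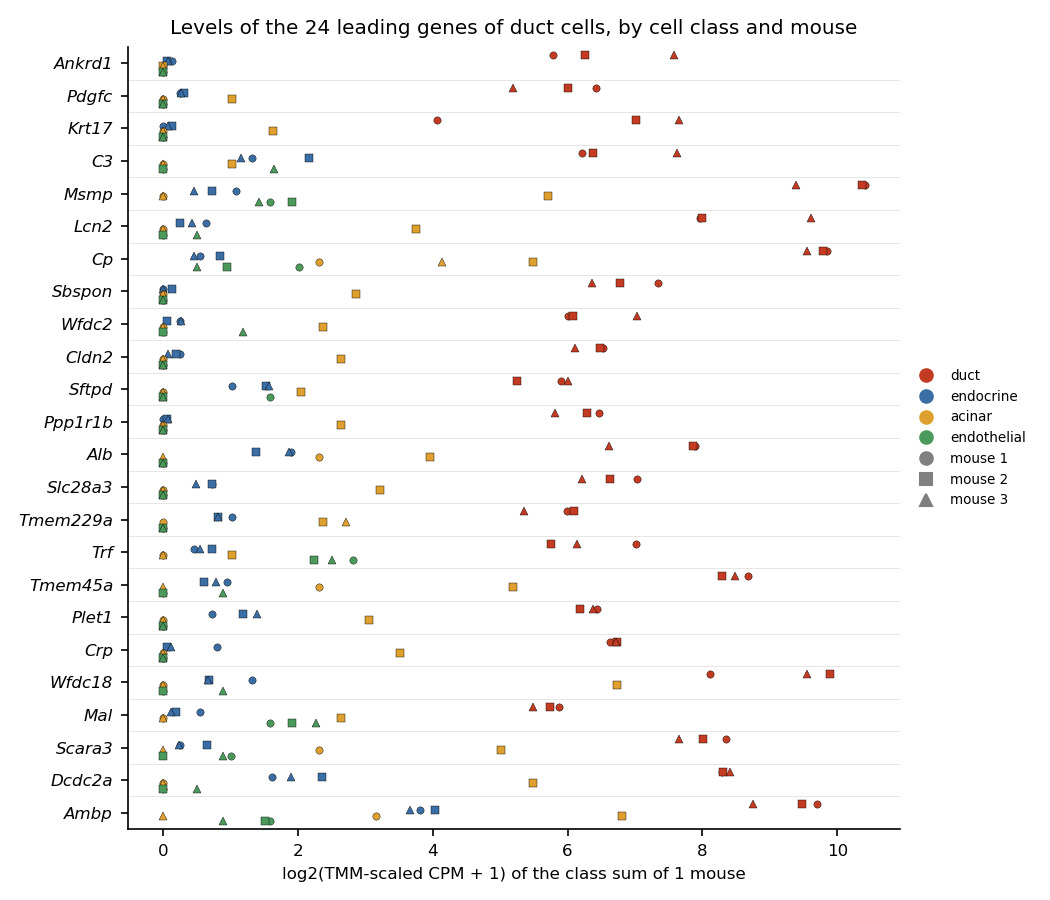
Level of the 24 leading duct genes (rows) as log2 of TMM-scaled CPM plus 1 (x axis), 1 point per cell class (colour) and mouse (shape). The duct points lie to the right of all others in all 24 rows, and among the acinar points that of mouse 2 is the highest in most.

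The 12 lower genes named by the same rule included products of endocrine granules and heat-shock genes. Tspan13, a tetraspanin, was at 2.5, 5.98 and 6.64 CPM in duct cells against 83.6, 101 and 106 in endocrine cells. Its log2 differences were -4.21, -3.51 and -4.68 from endocrine, acinar and endothelial cells (FDR 2.53e-14, 7.6e-09 and 9.87e-15), the acinar one shrinking to -0.57 without TMM (FDR 0.163). The heat-shock genes Hspa1a, at 24.3, 54.4 and 79.0 CPM, and Hspa1b, at 32.2, 12.2 and 27.8 CPM, were lower than endocrine cells by -3.13 (FDR 6.69e-14) and -2.97 (FDR 3.34e-06), and so was Gadd45g by -2.73 (FDR 2.6e-09), but all 3 turned higher than acinar cells without TMM (0.97, 0.99 and 1.04). Pkm, a glycolytic enzyme, was at 31.4, 31.3 and 39.2 CPM, lower than endothelial cells by -1.87 (FDR 4.69e-09). Chga, Scg5, Pam and Iapp, which make or fill endocrine granules, were also lower in duct cells than in all 3 classes, although Pam and Iapp turned higher than acinar cells without TMM (1.33 and 0.25). Their differences from endothelial cells were -1.48, -1.55, -1.50 and -1.46. These 4 are products of endocrine cells, and insulin made up 1.51%, 1.33% and 0.618% of duct UMIs against 4.20%, 3.53% and 1.44% of endothelial UMIs. The part of free endocrine RNA in these differences was not tested. Against endothelial cells, Scg5 did not pass without mouse 2 (FDR 0.0682), Hspa1b without mouse 3 (FDR 0.114) and Iapp without the mouse block (FDR 0.0645).

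Genes of the duct's regulation and work were then read as 20 lists. Each list is described by its counts and its median log2 difference, in which a gene without UMIs in a class is set at the bound that 3 UMIs give. Over all genes tested this median was -0.04, 0.08 and -0.03 against endocrine, acinar and endothelial cells. The lists were assembled with earlier results of these data known, so their direction is not independent evidence. Counts against acinar cells include mouse 2. Without it, 777 genes were higher and 946 lower than in acinar cells, of 10929 tested. The list counts higher and lower were 9 and 0 of 14 for the duct lineage and 8 and 0 of 18 for transport. Junctions had 8 and 0 of 20, the primary cilium 4 and 0 of 13 and defence 13 and 1 of 17. Notch had 2 and 0 of 14, YAP and TEAD 7 and 1 of 16 and growth factors 6 and 0 of 17. Interferon response had 6 and 1 of 21 and endocrine progenitors 0 and 5 of 13.

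Of 15 tested transcription factors and regulators of the duct lineage, 12 were higher and none lower than in endocrine cells, 9 higher and 1 lower than in acinar cells, and 14 higher than in endothelial cells, 8 of them in all 3. The list medians were 1.69, 1.78 and 5.07. Onecut1, a factor of embryonic duct development, was at 31.1, 28.3 and 26.1 CPM with 3 UMIs in all endocrine cells, and exceeded acinar cells by 2.55 (FDR 0.000271). Prox1, at 237, 220 and 111 CPM and lowest in mouse 3, exceeded endocrine cells by 1.54 (FDR 0.000174), acinar cells by 3.16 (FDR 5.84e-05) and endothelial cells by 5.39 (FDR 6.16e-08). Bicc1, an RNA-binding protein needed for tubule shape, was at 249, 198 and 212 CPM and higher by 3.45, 3 and 3.84 in log2 than endocrine, acinar and endothelial cells. The Notch target Hes1, at 191, 197 and 146 CPM, was higher than in endocrine cells by 4.56 (FDR 6.81e-18) and did not pass against endothelial cells (-0.18, FDR 0.483). Foxa2, Foxa3 and Hnf4a, which endocrine cells also use, did not pass against endocrine cells, with differences of -0.35, 0.05 and -0.01.

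Genes of fluid and bicarbonate transport were higher in duct cells than in both other epithelial classes. Of 18 tested, 14 were higher and none lower than in endocrine cells, 11 higher and none lower than in acinar cells, and 11 higher and 3 lower than in endothelial cells, with medians of 5.01, 2.43 and 2.99. Kcnn4, a calcium-gated potassium channel, was at 101, 91.4 and 82.1 CPM and higher by 8.08 (SE 0.27, FDR 2.43e-21), 3.60 (FDR 1.23e-08) and 5.27 (FDR 1.5e-14). Slc5a1, a sodium-glucose carrier, was at 44.0, 46.5 and 47.7 CPM, and carbonic anhydrase Car2, which makes bicarbonate, at 32.9, 23.4 and 23 CPM, higher than endocrine cells by 7.60 (FDR 1.04e-19) and 7.36 (FDR 1.45e-17). The secretin receptor Sctr, at 16.8, 25 and 15.9 CPM, had 3 UMIs in all endocrine cells and none in endothelial cells. Slc4a4, which brings sodium and bicarbonate into the cell, was at 31.8, 40.8 and 46.7 CPM and higher by 2.43, 2.78 and 5.19 (FDR 1.07e-12, 1.44e-05 and 4.12e-12). Aqp5, an apical water channel, was at 25.4, 28.0 and 14.5 CPM and at least 497-fold above endocrine cells, which had no UMI. The sodium pump subunit Atp1b1 was at 402, 398 and 419 CPM, almost level over the mice, and higher by 2.07, 3.57 and 6.34. The calcium-gated chloride channel Ano1 was higher than in endocrine cells (6.12, FDR 1.15e-17), with a difference of 0.95 from acinar cells that did not pass (FDR 0.0705). The 3 lower than in endothelial cells were Car4, Kcnj15 and Aqp1, and the first 2 had no UMI in any duct cell.

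Keratins and junction genes separated duct cells chiefly from endothelial cells. Krt8 and Krt18, the paired keratins of simple epithelia, were at 719, 744 and 1374 CPM and at 918, 1004 and 1518 CPM, highest in mouse 3. They were higher than in endocrine cells by 2.62 (FDR 4.88e-12) and 2.95 (FDR 2.06e-13), and than in acinar cells by 0.67 (FDR 0.0189) and 0.76 (FDR 0.0058). Krt7, often used as a duct keratin, was at 50, 53.6 and 96.8 CPM and did not differ by the test from endocrine cells (-0.68, FDR 0.0541), although leaving out mouse 3 made it lower (-0.91, FDR 0.00247). Of 20 junction and polarity genes, 17 were higher and none lower than in endocrine cells, 11 and none against acinar cells, and 18 higher and 2 lower (Tjp1, Jup) against endothelial cells, with medians of 2.04, 0.83 and 5.46. Cldn10, an ion-selective claudin, was at 178, 159 and 172 CPM and higher by 8.27 (FDR 7.22e-22) and 1.21 (FDR 0.000102) than in endocrine and acinar cells, with 1 UMI in endothelial cells. Dsg2, a desmosome cadherin, was at 123, 108 and 122 CPM and higher than in endocrine cells by 3.06 (FDR 3.09e-16). Epcam, at 803, 877 and 929 CPM, was higher by 2.10 (FDR 0.00212), 2.33 (FDR 0.00485) and 7.13 (FDR 9.12e-06). Cldn4, at 49.3, 41.1 and 163 CPM, was high in mouse 3 and differed from acinar cells by -0.67, which did not pass.

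Among 13 genes of the primary cilium and planar polarity, 7 were higher and 2 lower than in endocrine cells, 6 and 1 against acinar cells and 7 and 2 against endothelial cells, with medians of 0.66, 0.91 and 1.37. Pkhd1, the fibrocystin gene of polycystic kidney and hepatic disease, was at 90.1, 72.3 and 86.6 CPM and higher by 5.38 (SE 0.24, FDR 1.06e-16) and 3.05 (SE 0.40, FDR 1.63e-06) than in endocrine and acinar cells, with 2 UMIs in endothelial cells. Pkd1, polycystin 1, was lower than in endocrine cells by -1.83 (FDR 3.04e-07) and than in endothelial cells by -1.47 (FDR 0.000268), at 7.86, 9.52 and 5.46 CPM. Without TMM the endocrine difference was -0.42 and no longer passed. Tmem67 was lower than in endocrine cells by -0.95 (FDR 0.0104), with a reversed value of 0.46 without TMM and no call without mouse 1 (FDR 0.0542) or mouse 3 (FDR 0.12). General ciliary transport genes such as Ift88, Ift172 and Ift140 were within -0.16 to 0.10 of endocrine cells and did not pass.

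Epithelial defence had the highest list median against endocrine cells. Of 18 tested genes, 15 were higher and 1 lower than in endocrine cells, 13 and 2 against acinar cells, 14 and none against endothelial cells, with medians of 6.03, 3.07 and 5.20, and 11 were higher than in all 3. Pigr, which carries secretory antibodies across epithelium, was at 274, 238 and 117 CPM in these mice without B cells, and higher by 8.32 over endocrine (SE 0.29, FDR 4.14e-17) and by 3.21 over acinar cells (FDR 5.53e-08). Clusterin, Clu, a secreted chaperone, was at 6480, 5342 and 6139 CPM, higher by 6.24 (FDR 1.22e-17), 0.86 (FDR 0.00869) and 6.47 (FDR 1.98e-17). Cd14, a receptor part for bacterial lipopolysaccharide, was at 134, 124 and 211 CPM and higher by 7.11, 2.97 and 2.75 (FDR 3.08e-16, 6.55e-07 and 3.23e-09). The surfactant collectin Sftpd was at 59.0, 37.0 and 63.4 CPM, and Wfdc2 at 63.6, 66.6 and 130. Defb1, a defensin of many epithelia, had 3 UMIs in all duct cells against 1856 in endocrine cells (FDR 3.22e-13). Cxcl1, at 75.0, 65.0 and 199 CPM, and Cxcl2, at 1.07, 4.89 and 43.2 CPM, were highest in mouse 3.

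Signalling lists gave different pictures against the 3 classes. In the Notch list, 8 of 14 genes were higher and 2 lower than in endocrine cells, 2 and 1 against acinar cells, and 1 higher and 10 lower against endothelial cells, where the median was -4.47. Over all genes tested, 13.2% were higher than in acinar cells, so the 2 of 14 lie near that share. The receptor Notch2 was higher in duct cells than in all 3 classes, at 60.8, 63.9 and 35.4 CPM, by 5.28 (SE 0.23, FDR 4.12e-19), 3.55 (FDR 2.54e-07) and 5.15 (FDR 7.68e-13). The ligand Jag1 was higher than in endocrine cells by 2.85 (FDR 8.04e-10), while the ligand Jag2 was lower by -3.12 (FDR 5.96e-07) and the ligand Dll4 had no UMI in duct cells against 69 in endocrine cells (FDR 0.000743). All 16 tested genes of YAP and TEAD signalling were higher than in endocrine cells (median 4.24), 12 were higher and 1 lower than in acinar cells (median 1.58), and 7 were higher and 5 lower than in endothelial cells (median 0.49). The secreted matricellular targets Ctgf and Cyr61 were at 169, 134 and 113 CPM and at 298, 279 and 452 CPM, higher by 7.36 (FDR 2.42e-09) and 6.51 (FDR 3.53e-13) over endocrine cells. The coactivators Yap1 and Wwtr1 exceeded endocrine cells by 5.02 and 5.77 (FDR 9.6e-15 and 7.41e-18), and Wwtr1 was lower than in endothelial cells by -1.95 (FDR 7.51e-10). Wwc1, an upstream regulator, was at 103, 73.7 and 83.1 CPM and higher than in endocrine and acinar cells by 3 and 1.67 in log2, with 2 UMIs in endothelial cells.

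In the Wnt list, 7 of 9 genes were higher and 2 (Wls, Sfrp5) lower than in endocrine cells, and Tcf7l2, the nuclear effector, was higher than in all 3 classes by 1.81, 1.15 and 1.15 (FDR 3.41e-10, 0.0106 and 0.000166). The feedback target Axin2 was at 18.9, 11.7 and 1.90 CPM, so mouse 3 was low. Integrins and basement membrane genes were 17 higher and 1 lower (Nid1) of 19 against endocrine cells and 8 higher and 9 lower against endothelial cells. Itgb6, an epithelial integrin that activates TGF-beta, was higher than in endocrine cells by 6.15 (FDR 8.26e-16), and Col18a1 by 6.65 (FDR 2.27e-17). Of 17 growth factor receptors and ligands, 15 were higher and none lower than in endocrine cells, 8 and none against acinar cells, and 12 and 2 against endothelial cells, with medians of 3.30, 1.76 and 2.77. Fgfr3 was at 102, 73.4 and 66.9 CPM and higher by 9.89 (SE 0.31, FDR 7.22e-22), 4.21 (FDR 4.16e-09) and 3.35 (FDR 1.29e-12), and Fgfr2 at 31.8, 34.5 and 36.3 CPM. Heparin-binding EGF, Hbegf, was at 152, 132 and 205 CPM and higher by 4.65, 2.23 and 1.73, and its sister ligand Btc was higher than in endocrine cells by 5.76 (FDR 5.22e-16).

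Interferon-response genes lay between the other classes. Of 21 tested, 18 were higher and none lower than in endocrine cells, 9 and 2 against acinar cells, and 1 higher (Ifi27) and 18 lower against endothelial cells, with medians of 2.50, 1.32 and -1.74. Isg15 was at 70.4, 43.5 and 46.0 CPM, higher than in endocrine cells by 5.12 (FDR 2.07e-19) and lower than in endothelial cells by -1.26 (FDR 3.27e-07). The class I genes B2m and H2-K1 were higher than in endocrine cells by 2.95 and 2.84 and lower than in endothelial cells by -2.01 and -1.74 (FDR 6.45e-13, 5.96e-13, 2.95e-09 and 2.2e-08). Of 18 immediate-early and dissociation genes, 8 were higher and 3 lower than in endocrine cells, with a median of 0.55. Ier3, at 125, 111 and 290 CPM, exceeded endocrine cells by 3.67 (FDR 2.67e-13) and Junb by 1.26 (FDR 9.48e-05), whereas Fos and Egr1 differed by 0.46 and 0.80 and did not pass. Cell-cycle genes were 6 higher and none lower of 15 against endocrine cells and 1 higher and 1 lower against endothelial cells. Mcm6, a replication helicase part, was higher than in endocrine cells by 1.39 (FDR 2.92e-05), Mki67 did not pass (0.82, FDR 0.0512), and the call of Tpx2 was lost without mouse 1 (FDR 0.0588), without mouse 2 (FDR 0.0599) or without the block (FDR 0.0508).

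Genes of endocrine progenitors and endocrine cell identity had the lowest list median against endocrine cells. All 12 tested were lower than in endocrine cells (median -5.59), 8 were lower than in acinar cells (median -3.21), and 6 were lower and 2 (Nkx2-2, Pdx1) higher than in endothelial cells. Pdx1, a factor of pancreatic progenitors and beta cells, was at 10, 14.1 and 9.73 CPM in duct cells against 45.8, 75.9 and 40.5 in endocrine cells. It was lower than in endocrine cells by -2.23 (SE 0.19, FDR 3.61e-12) and higher than in endothelial cells by 1.85 (SE 0.38, FDR 0.000117), with -0.19 against acinar cells (FDR 0.753). Nkx6-1 was at 1.79, 1.90 and 0.949 CPM, lower than in endocrine cells by -6.01 (FDR 2.07e-19). Among 6 pancreatic progenitor genes, 3 were higher, Gata6 and Aldh1a1 among them, and Pdx1 and Nkx6-1 were lower than in endocrine cells. Aldh1a1, a retinoic acid enzyme, was level at 27.5, 28.8 and 25.6 CPM and higher by 6.29 (FDR 9.03e-18). Of 12 genes of a mesenchymal or plastic duct state, 7 were higher and 4 lower than in endocrine cells and 4 higher and 6 lower than in endothelial cells. The intermediate filament gene Vim was at 15.7, 13.3 and 26.6 CPM, below endothelial cells by -4.32 (FDR 1.99e-14), and Prom1, a marker of apical protrusions, was higher in duct cells by 2.76, 2.09 and 4.72. The stomach-type peptide Tff2 did not pass against endocrine cells (-0.53, FDR 0.649), Galnt3 was higher by 4.62 (FDR 6.45e-14), and the tuft gene Trpm5 was lower by -5.57 (FDR 4.28e-15).

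**Figure D3:**
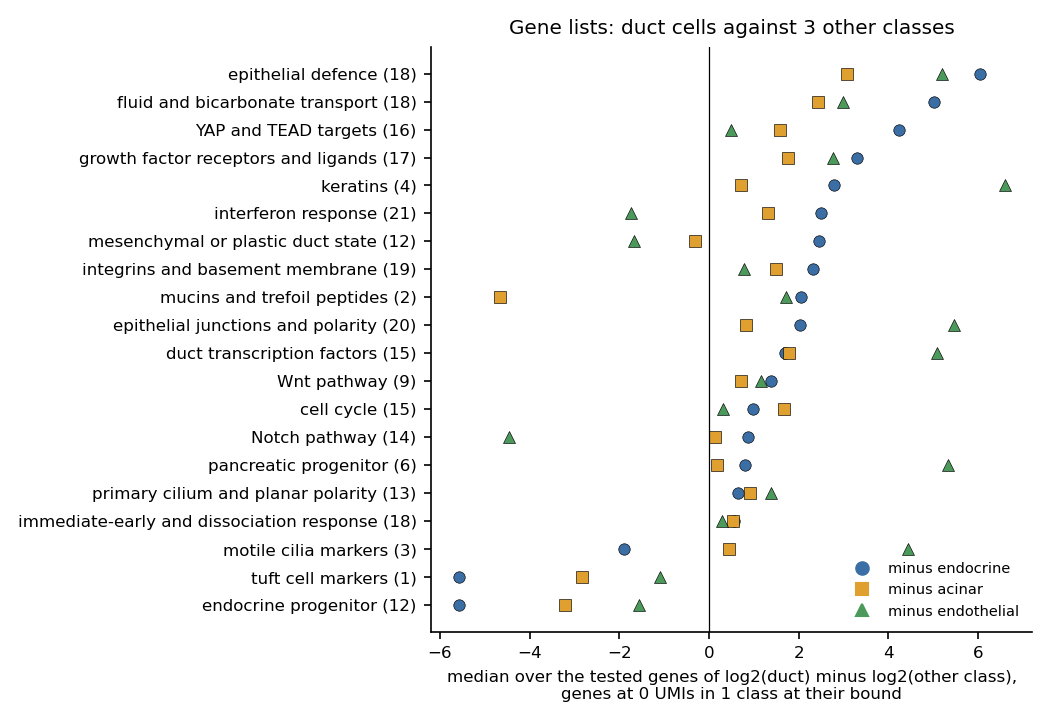
Median log2 difference of the tested genes of 20 lists (number tested in brackets) between duct cells and endocrine (circles), acinar (squares) and endothelial cells (triangles), with genes at 0 UMIs in 1 class at their bound. Epithelial defence, fluid transport and YAP genes have the highest medians against endocrine cells (6.03, 5.01 and 4.24), endocrine progenitor genes among the lowest (-5.59), and the median of -0.31 of the mesenchymal list against acinar cells turned to 2.91 without TMM.

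Because the series asks about a non-endocrine source of beta cells, progenitor genes were also counted cell by cell. A Neurog3 UMI was found in 2 of 42, 1 of 94 and 0 of 123 duct cells (4.76%, 1.06% and 0%), never more than 1 per cell. The cells of mouse 1 were deep, with 46140 and 135835 UMIs, and the cell of mouse 2 had 42.9% acinar RNA. At a common depth of 3000 UMIs, which leaves 40, 84 and 118 duct cells, none of 242 had a Neurog3 UMI. With 3 cells taken as the bound for 0, that is up to 1.24% of cells at that depth. None of 395 endothelial cells at full depth had Neurog3 (up to 0.759% by the same bound). These bounds pool the cells of 3 mice as if independent, so they do not cover differences between mice. Detection of the gene in duct cells was thus at the limit of this depth.

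Pdx1 was found in 38.1%, 29.8% and 28.5% of duct cells against 7.69%, 4.60% and 1.95% of endothelial cells, whose median depths were 9504, 5183 and 4295 UMIs. At 3000 UMIs the shares were 3 of 40 or 7.5% (exact Clopper-Pearson 95% interval 1.57 to 20.4), 9.52% (4.20 to 17.9) and 7.63% (3.55 to 14) in duct cells, and 5.77%, 2.74% and 1% in endothelial cells, with intervals that overlap in each mouse. Intervals cover counting error only. Nkx6-1 was found in 11.9%, 5.32% and 3.25% of duct cells and in 13.5%, 9.20% and 3.13% of endothelial cells, and Neurod1 in 11.9%, 7.45% and 1.63% against 13.5%, 5.75% and 1.17%. At 3000 UMIs Nkx6-1 was found in 1 of 242 duct cells and 12 of 325 endothelial cells, Neurod1 in 2 and 8 and Insm1 in 4 and 6, so none of these shares in duct cells is read as expression. At least 3 endocrine progenitor genes at 3000 UMIs were found in 2.5%, 3.57% and 1.69% of duct cells and in 7.69%, 5.48% and 3% of endothelial cells.

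Other programmes were counted in the same way. Foxj1, the master factor of motile cilia, had a UMI in 21.4%, 8.51% and 26.8% of duct cells and in 0%, 0% and 0.391% of endothelial cells, and at 3000 UMIs in 5%, 5.95% and 10.2% against 0%, 0% and 0.5%. In the class sums Foxj1 was at 4.29, 4.08 and 15.7 CPM, higher than in endocrine cells by 4.18 (FDR 2.1e-10), whereas the motile cilia genes Rsph1 and Tppp3 were lower than in endocrine cells by -1.90 and -3.49 (FDR 6.28e-07 and 1.38e-06). At least 3 of 7 motile cilia markers were found in 0 of 42, 2 of 94 and 9 of 123 duct cells, in 27 of 386, 33 of 1453 and 113 of 1670 endocrine cells and in 1, 0 and 0 endothelial cells, and at 3000 UMIs in 1 duct cell. Slpi, a secreted protease inhibitor of mucosa, had a UMI in 1, 0 and 22 duct cells, or 17.9% of those of mouse 3 (10.2% at 3000 UMIs). At least 3 of 18 cell-cycle genes were found in 40.5%, 29.8% and 26.0% of duct cells at full depth, and at 3000 UMIs in 10%, 7.14% and 5.08% against 0%, 1.37% and 3.5% of endothelial cells, with exact Clopper-Pearson 95% intervals that overlap in each mouse.

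Variation among the duct cells was read from cells thinned to 3000 UMIs, ranking genes by the variance-to-mean ratio within each mouse and taking the 20 genes whose lowest rank over the mice was best, out of 3238. They were Malat1, Gm42418, Wfdc18, Ins2, Msmp, Spp1, Ins1, Apoe, Pyy, Fth1, Clu, Ttr, Nupr1, Gcg, mt-Co3, mt-Atp6, Fos, Jun, Meg3 and mt-Co2. The hormones Ins1, Ins2, Gcg and Pyy in this list are endocrine products and Gm42418 overlaps ribosomal RNA, and in mouse 1 Gm42418 and Ins2 had a Spearman rho of 0.92 across its 40 thinned cells. Among the duct-made genes, Wfdc18 and Msmp opposed each other, with rho of -0.61, -0.58 and -0.41 over 40, 84 and 118 cells of mice 1, 2 and 3. Wfdc18 went with the stress-induced chromatin protein Nupr1 (0.58, 0.35 and 0.50) and Msmp with the retinol and thyroxine carrier Ttr (0.49, 0.81 and 0.40). In mouse 2, Nupr1 was also found in cells rich in acinar RNA, including cells with little or no Wfdc18. The cells of a mouse share a library and, after thinning, a depth, and these values carry no p.

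Most cells with Wfdc18 lacked Msmp. At least 2 Wfdc18 UMIs with no Msmp were found in 11 of 40, 30 of 84 and 52 of 118 thinned cells (27.5%, 35.7% and 44.1%), and at least 2 Msmp UMIs with no Wfdc18 in 16, 28 and 16 (40.0%, 33.3% and 13.6%). Both at that level were found in 1, 2 and 0 cells, and the other cells numbered 12, 24 and 50. The split was drawn after the values were seen, so what follows describes it without a test. Before thinning, the Wfdc18 cells were shallower, with medians of 12576, 9262.5 and 11822 UMIs against 43508, 27012 and 29246 in Msmp cells. They also held more hormone RNA (medians 6.35%, 3.82% and 1.30% against 0.652%, 0.683% and 0.444%) and acinar RNA (0.749%, 2.70% and 0.137% against 0.0973%, 0.773% and 0.0456%). The part of depth and of free RNA in the differences was not tested.

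**Figure D4:**
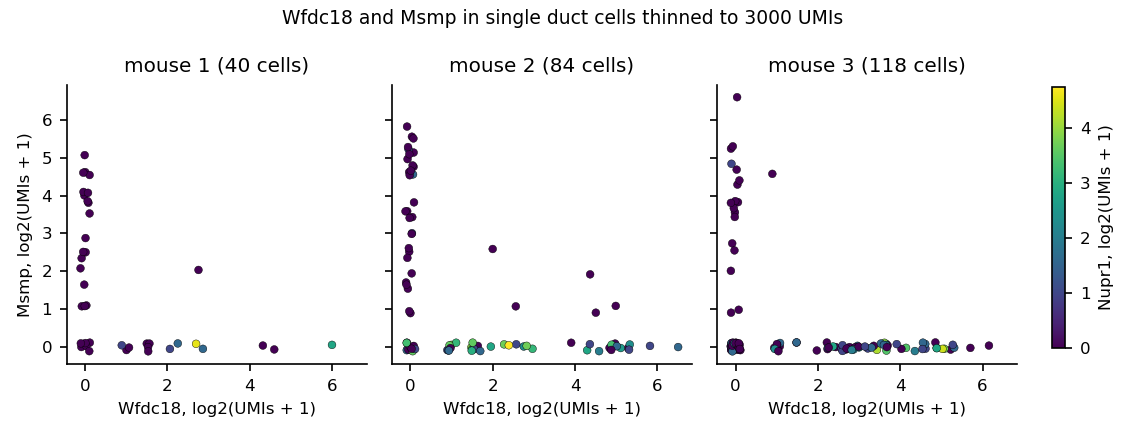
Wfdc18 UMIs (x axis) against Msmp UMIs (y axis) per duct cell thinned to 3000 UMIs, 1 panel per mouse with 40, 84 and 118 cells, points jittered and coloured by Nupr1. Cells lie along the axes, 1, 2 and 0 cells have at least 2 UMIs of both genes, and most cells with Nupr1 lie along the Wfdc18 axis. Both axes and the colour are log2 of UMIs plus 1.

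Between these cells, 24 of 1786 measured genes (1.34%) were at least 1 higher on the log2 scale in Wfdc18 cells in every mouse, and 28 (1.57%) in Msmp cells, using values per 10000 UMIs with 0.5 added. The 24 include Wfdc18 and the 28 include Msmp, which define the split. Nupr1 was at 10.3, 16.6 and 9.68 per 10000 UMIs in Wfdc18 cells and at 0, 0.476 and 0.208 in Msmp cells. In mouse 1, 1 cell held 23 of the 34 Nupr1 UMIs, and 45.5% of its 11 Wfdc18 cells had any. Of the 30 Wfdc18 cells of mouse 2, 10 had at least 5% acinar RNA, and without them its Nupr1 value was 10.8. Leaving out such cells from both sides gave 27 genes higher in Wfdc18 and 27 in Msmp cells, of which 21 and 26 were among those above. In mouse 2, 9 Wfdc18 cells with 26.9% to 57.5% acinar RNA held 84 of the 149 Nupr1 UMIs of its Wfdc18 cells. Another 7 cells of mouse 2, on neither side of the split and with 41.9% to 48.1% acinar RNA, held 79. Krt17 was at 2.42, 7 and 8.08 against 0, 0.238 and 0.833. Basp1, Tagln2, Marcks, S100a6, Cd74, Mme, Tgfb2, Ccnd1 and Atf5 were on the same side. Iapp, Pcsk1n, Resp18, Try4, Reg2 and Rnase1 were there too, and these are endocrine and acinar products.

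On the Msmp side, Alb was at 6.88, 6.90 and 5.63 per 10000 UMIs in Msmp cells against 0.606, 0.556 and 0.449 in Wfdc18 cells, and Cp at 22.5, 21.4 and 25.8 against 5.15, 5.33 and 9.42. Prox1 was at 4.58, 4.17 and 4.17 against 0.303, 1.33 and 1.73. Pigr, Ttr, Trf, Ambp, Lbp, Itih5, Pzp, Gas6, Vegfa, Maf, Nr0b2 and Scara3 were also higher in Msmp cells. Of the duct markers used by the rule, 3 had higher values in Wfdc18 cells in every mouse, some by little. The Spp1 difference was 0.083 and 0.091 in log2 in mice 2 and 3, and Cftr in mouse 1 rests on 1 UMI. Spp1 was at 217, 159 and 186 in Wfdc18 cells against 144, 150 and 174 in Msmp cells, Krt19 at 3.64, 4 and 7.12 against 2.5, 3.21 and 3.54, and Cftr at 0.303, 2 and 1.47 against 0, 0.238 and 0. Sox9 was higher in Wfdc18 cells in mouse 1 only, at 6.36, 3.78 and 5.38 against 4.79, 5.12 and 6.88, and Muc1 and Mmp7 were not on 1 side in every mouse.

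Clustering the 259 cells with values centred per mouse gave 8 groups, which are called by their leading genes and not by cell type. Group 1 (52 cells, 3, 14 and 35 per mouse) was led by the chemokines Ccl2, Ccl5 and Cxcl16, the adhesion receptor Vcam1, Cldn4, Ankrd1 and Cd74. In it Ccl2 was at 184, 202 and 1073 CPM of summed UMIs against 0, 0 and 13.8 in the other duct cells, and Vcam1 at 226, 253 and 696 against 11.1, 8.14 and 53.6. Its share of duct cells was 7.14%, 14.9% and 28.5%. Group 4 (39 cells, 11, 28 and 0) was led by Maf, Reln, Meg3, Alb, Prox1, Axin2 and Pigr and was deep, with a median of 41637 UMIs. Reln, an extracellular glycoprotein, was at 204 and 109 CPM in its cells of mice 1 and 2 against 24.4 and 12.9 in the other duct cells. No cell of mouse 3 fell in it, and mouse 3 had Reln UMIs in 18 of its duct cells.

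Group 3 (40 cells, 9, 13 and 18) was led by Wfdc18, Ly6d, Gabrp, Nupr1 and Tspan8, and group 2 (49 cells, 13, 20 and 16), the shallowest with a median of 6934 UMIs, by Ins1, Ins2, Gm42418, Mmp7, Sftpd and Foxj1. Group 5 (27 cells, 25 of them of mouse 3) was led by Wfdc3, Igfbpl1, Cbs, Ccnd1 and Cldn10. Group 6 (24 cells, all of mouse 3) was led by the immediate-early genes Nr4a1, Fosb and Egr1 with Neat1. Its cells come from 1 library, so library, animal and kind of cell cannot be told apart. Group 6 held 14 of the 16 Msmp cells of mouse 3, whereas 14 of 16 in mouse 1 and 28 of 28 in mouse 2 were in groups 2 and 4. Group 7 (20 cells, 17 of mouse 2) was led by Try5, Cpa1, Prss2 and other acinar enzymes, with a median of 42.6% acinar RNA and 1 cell with at least 4 of the 5 duct markers. Group 8 held 8 cycling cells (3, 1 and 4), led by Mki67, Top2a, Cenpf and Birc5. Birc5, a mitotic regulator, had a UMI in 8 of 8 of them and in none of the other duct cells. The groups depend on the settings, since a resolution of 0.5 or 2 gave 7 or 13 groups, and leaving out the centring per mouse gave 9 with an adjusted Rand index of 0.45 to those described.

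**Figure D5:**
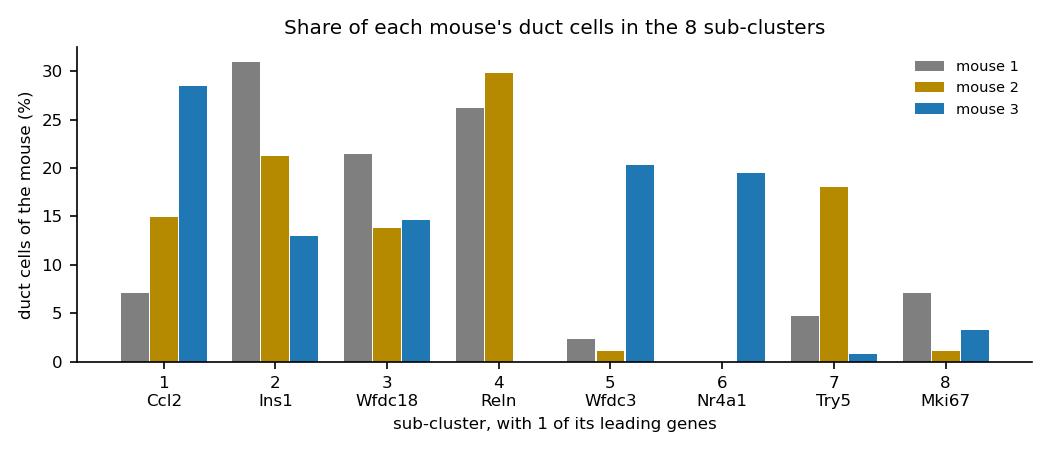
Share of each mouse's duct cells (percent, y axis, bars from 0) in the 8 groups, for mice 1, 2 and 3 with 42, 94 and 123 cells. Groups 5 and 6 come almost only from mouse 3, group 4 is missing from mouse 3 (26.2%, 29.8% and 0%), and group 7 is highest in mouse 2 (18.1%).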

How the data were processed

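Per the labels, islet cells of 3 mice were sequenced with a 10x Genomics 3′ kit, and per the submitters' processing notes Cell Ranger 2.2 with mm10 was used, while per the file headers the matrices carry software version 3.1.0. The authors deposited counts, whole numbers of UMIs per gene and barcode, for barcodes already selected in a way not given in the sources used here. All 31053 features were used, and positions come from GENCODE M21 (GRCm38), which held 30934 of them.

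The members, gene lists and tests were chosen with earlier results of these data known. Endocrine cells had at least 30% hormone UMIs and fewer than 2 Spp1 UMIs, and acinar cells at least 10% acinar UMIs without an Spp1 limit. Endothelial cells had at least 3 of 6 markers and fewer than 2 Spp1 UMIs. Acinar and endothelial cells had under 15% hormone UMIs, and none was a duct cell. UMIs were summed per mouse and class (12 sums) and tested by the quasi-likelihood method of edgeR 4.0.16 under R 4.3.3. Low genes were left out with filterByExpr, sums were scaled by TMM, the mouse was a block, and p-values were adjusted by Benjamini-Hochberg over 10975 genes with a threshold of 0.05. The standard error (SE) is the log2 difference divided by the square root of F. CPM beside these tests are TMM-scaled. The 29 genes of the rule and of the class markers stay out of all counts. Named genes were up to 24 higher and 12 lower in all 3 contrasts and in every mouse with a mean of at least 50 CPM, taken by the smallest of the 3 log2 differences, up to 5 per list by the smallest p against endocrine cells with every lower member, and 20 by variation. List members outside this rule and the genes named in the split of Wfdc18 and Msmp cells were chosen after values were seen. An item withheld for evaluation is not reported here.

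Sums of the same mouse are paired because they come from 1 animal and library. Their deviations from the class mean correlated at -0.0186 to 0.806 over 1994 genes, against -0.76 to 0.33 between mice. Duct and acinar sums of the same mouse correlated at 0.102, 0.0522 and 0.361. Centring each class on the mean of 3 mice pushes values between mice down where those within a mouse are up. The contrast is therefore partly built in and is given as a description. Because the mouse was a block, p-values rest on how the class differences vary among these 3 mice, pooled over the classes. Differences between animals that all classes of a mouse share are taken up by the block. The p-values do not reach beyond these animals. On simulated data for the comparison with endocrine cells (8550 genes), the fit recovered 66.3% of genes changed by 1 and 100% of those changed by 2 on the log2 scale, and called 0.155% of unchanged genes. Changed genes lost to the low-count filter were not counted. The simulated classes of a mouse shared 1 mean profile, so these values do not cover the scaling between classes that differ in makeup. Doublets were scored with Scrublet in scanpy 1.11.5, removed only as an alternative at 0.8% per 1000 barcodes. Groups within duct cells used Leiden clustering (leidenalg 0.10.2) at resolution 1. Alternatives were DESeq2 1.42.0, no TMM, no filter on low counts, no block, leaving out each mouse, thinned cells and other limits of the rule.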

Additional observations from a re-analysis of the deposited data

How the results depend on the processing

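Every mouse shared its cell classes, so the fit kept the mouse as a block, and without the replicate block the counts higher and lower in duct cells were 2776 and 2874 against endocrine cells, 1418 and 1537 against acinar cells, 2278 and 2482 against endothelial cells and 463 and 247 against all 3, none of them moving by over 1.5 times. Without TMM the calls against endocrine cells were 8362 and 759, against acinar cells 9912 and 153, the lower calls against endothelial cells 1725 and those against all 3 classes 1860 and 25. Thinning each cell to 2000 UMIs, which left 3915 genes to test, gave 772 and 698, 331 and 341, 615 and 817, and 134 and 42. The lower genes against all 3 classes numbered 162 with cells of at least 1000 genes and 128 with hormones under 5%. Leaving out 1 mouse at a time gave 2567 to 2696 higher and 2587 to 2717 lower against endocrine cells, 777 to 1219 and 946 to 1493 against acinar cells, 1860 to 2186 and 2177 to 2334 against endothelial cells, and 289 to 437 and 141 to 240 against all 3, the lowest acinar and joint counts without mouse 2.

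Without TMM, differences from acinar cells reversed for Hspa1a (0.97), Gadd45g (1.04), Slc3a2 (0.66), Hspa1b (0.99), Cst3 (0.395), Pam (1.33), Iapp (0.25) and Pkm (1.62), and that of Tmem67 from endocrine cells to 0.46. Over 200 named gene comparisons, 2753 values were computed under alternatives, of which 2699 kept direction and side of the threshold, 39 no longer passed, 6 newly passed and 9 reversed.

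The mean share of duct cells was 2.78% with at least 3 other duct markers and 4.60% with at least 1, 2.59% with hormones under 5% and 3.79% under 30%, 2.31% with at least 250 genes and 4.94% with at least 1000, and 3.945% with at most 10% mitochondrial UMIs. Clustering at resolution 2 gave 13 groups. The mean share of duct cells with a Pdx1 UMI, 32.1% over the mice, was 8.22% at 3000 UMIs and 39.6% with hormones under 5%, that of Nkx6-1 was 0.397% and that of Neurod1 1.23% at 3000 UMIs. The cause of these shifts was not tested, beyond the fewer UMIs that thinning leaves. Chosen after seeing the data, duct cells with under 5% acinar RNA gave 474 and 281 genes higher and lower than all 3 classes, and those with at least 10 Spp1 UMIs 472 and 259. Depth limits the detection of rare transcripts, as a duct cell had a median of 8825.5 to 14971 UMIs.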

Other observations

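A single duct cell of mouse 3 carried a gastric-type secretory gene at a very high level. It held 743 UMIs of Gkn3, a gastrokine of stomach mucous cells, among 17303 UMIs and 3918 genes, and 20 UMIs of Muc6, the gland mucin of the stomach and pancreas. It had 122 Spp1, 43 Clu and 9 Pigr UMIs, together with 6 UMIs of Krt19, 6 of Muc1 and 4 of Sox9, and 0.243% of its UMIs came from acinar markers. Tff1, Tff2, Muc5ac, Agr2 and Gkn1 were at 0 in it. All other duct cells together held 1 Gkn3 UMI, in mouse 1. This cell was chosen after its values were seen.

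Among the duct cells, those of mouse 3 had the highest values of some defence genes. Slpi had a UMI in 22 of 123 duct cells of mouse 3, in 1 of 42 in mouse 1 and in none of 94 in mouse 2, and in none of 395 endothelial cells. Ccl5 in the chemokine-led group was at 1138 CPM of summed UMIs in mouse 3 against 14.1 and 209 in mice 1 and 2. No label sets mouse 3 apart from the others, and the difference between single animals was not tested.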
